A study of Homo sapiens with 12 samples.

Results

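The genes described here are 51 genes of protein folding, secretion and the unfolded protein response of the endoplasmic reticulum (ER), out of 43735 entries in the count table. They were chosen by symbol as ER chaperones, ER-associated degradation factors, translocon subunits, sensors of ER stress and secretory genes of plasma cells. The rule itself uses no measured value, but the genes were picked when earlier results of these data were known. The RNA-seq data cover 12 cultures, 3 for each of 4 groups. The groups were GC (glucocorticoid)-sensitive MM1S cells left untreated, MM1S cells exposed to withaferin A (WA), GC-resistant MM1R cells left untreated, and MM1R cells exposed to WA. Per the labels, the WA concentration was 1 µM and the exposure lasted 3 h, in RPMI-1640 medium with serum for all groups. Both are established multiple myeloma lines from the same patient, and each stands for 1 derivative, so that a difference between them is a difference between these cell populations. The cultures were of passage 16, 22 and 23 for MM1S and of passage 4, 6 and 7 for MM1R, so that passage number and line cannot be told apart. No label names a vehicle for the untreated cultures.

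Plasma cells secrete large amounts of immunoglobulin, and their ER carries a matching load of chaperones, oxidases and quality control factors. When unfolded proteins build up in the ER, the chaperone BiP (HSPA5) is drawn away from the membrane sensors PERK (EIF2AK3), IRE1 (ERN1) and ATF6. PERK slows translation and favours ATF4, IRE1 splices the mRNA of XBP1, and cleaved ATF6 enters the nucleus, where it and spliced XBP1 switch on chaperone and degradation genes. Read counts per gene measure none of splicing, phosphorylation or cleavage, so that sensor activity was not measured here.

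The best known DNA element of this response is the ER stress response element (ERSE), which binds ATF6 and XBP1 together with NF-Y. The letters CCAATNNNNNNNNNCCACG were looked for on both strands in the 250 bases before the RefSeq transcription start (GRCh38.p14). Of the 51 genes, 46 had such a sequence, and 7 of them (15.2%) held the element. Among all 35116 RefSeq promoters of that length it was found in 26 (0.074%). The matches are shown because they mark the classical targets among the genes described. CCAAT and CCACG stand in capitals, each site is written on the strand on which it reads as ERSE, and HSP90B1 held a pair of sites.
HSPA5: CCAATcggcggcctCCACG
HSP90B1: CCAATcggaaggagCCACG
HSP90B1: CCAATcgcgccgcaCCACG
XBP1: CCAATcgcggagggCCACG
CALR: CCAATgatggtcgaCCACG
CANX: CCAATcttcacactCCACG
CRELD2: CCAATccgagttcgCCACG
ERO1B: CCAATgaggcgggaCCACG

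The sites began 66 bases before the start in HSPA5, 52 in XBP1, 80 in CRELD2, 151 in CANX, 225 in CALR and 243 in ERO1B, and 194 and 89 bases before it in HSP90B1. The related element ERSE-II (ATTGGNCCACG) was present in 3 genes (6.52%), namely HYOU1, SDF2L1 and HERPUD1, against 0.0513% of all promoters. HYOU1 held it at 2 places and also held the core of the unfolded protein response element (TGACGTGG, 0.612% of all promoters), which overlapped 1 of them. The composite element read by ATF4 (TGATGCAAT) was in 0 of 46 promoters against 0.216% of all, and the short heat shock motif (GAANNTTC) was in 4 (8.7%) against 5.78%. A match of letters is a description of the sequence and not of binding, and no match says only that these letters are not in this window.

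The promoter windows of 4 genes follow, because the results below turn on them. HSPA13 and ERO1A passed the test with WA in MM1R and held no ERSE, HSPA5 is the classical ERSE gene, and ERO1B is the paralogue of ERO1A. They lie at chr9:125241344-125241593 for HSPA5, chr21:14383147-14383396 for HSPA13, chr14:52695559-52695808 for ERO1A and chr1:236281959-236282208 for ERO1B (GRCh38.p14, minus strand for each). Each window is written 5′ to 3′ on the strand of its gene and ends at the base before the start. Capitals mark the ERSE, which in ERO1B reads on the opposite strand.
HSPA5: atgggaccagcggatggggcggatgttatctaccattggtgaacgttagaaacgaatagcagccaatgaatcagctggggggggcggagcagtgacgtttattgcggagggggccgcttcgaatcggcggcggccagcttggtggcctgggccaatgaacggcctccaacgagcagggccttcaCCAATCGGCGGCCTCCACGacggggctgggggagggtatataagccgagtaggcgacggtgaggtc
HSPA13: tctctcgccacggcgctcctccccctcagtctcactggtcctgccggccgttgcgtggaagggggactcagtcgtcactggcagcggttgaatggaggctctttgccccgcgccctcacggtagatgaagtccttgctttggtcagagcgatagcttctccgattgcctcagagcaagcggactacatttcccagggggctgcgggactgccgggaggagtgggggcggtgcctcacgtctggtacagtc
ERO1A: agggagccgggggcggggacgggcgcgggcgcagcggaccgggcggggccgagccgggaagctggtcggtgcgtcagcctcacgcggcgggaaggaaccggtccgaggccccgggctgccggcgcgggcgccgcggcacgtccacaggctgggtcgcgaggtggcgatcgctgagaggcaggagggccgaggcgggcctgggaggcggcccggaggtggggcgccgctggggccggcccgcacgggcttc
ERO1B: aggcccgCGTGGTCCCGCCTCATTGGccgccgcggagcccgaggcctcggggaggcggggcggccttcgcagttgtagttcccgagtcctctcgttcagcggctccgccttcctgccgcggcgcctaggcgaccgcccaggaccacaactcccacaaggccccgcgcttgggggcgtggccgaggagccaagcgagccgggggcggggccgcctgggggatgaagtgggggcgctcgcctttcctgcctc

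Libraries held 17625110 to 19368343 counted reads (median 18555625). A read was found for 26497 genes, of which 14085 had enough reads for a test. Of the 51 genes, 50 passed it. EDEM2, a lectin of glycoprotein degradation, had 1 to 8 reads per culture and was not tested. Plasma cell markers differed widely in level. SDC1 (CD138) had 12429 to 15966 reads per untreated culture and CD38 had 708 to 2334. CD27 had 1 to 8 reads over all cultures and was not tested. The fibroblast markers COL1A2 and COL3A1, the myeloid marker FCGR3A and the epithelial marker KRT19 were at 0 in every culture. The 8 plasma cell markers together took 0.389 to 0.454% of reads in untreated MM1R, 0.324 to 0.368% in MM1R with WA, 0.371 to 0.419% in untreated MM1S and 0.331 to 0.358% in MM1S with WA. Markers of mature B cells took at most 0.00436% (mostly CR2), and those of T cells (CD3E), fibroblasts, epithelium and myeloid cells at most 0.00117%, 0.00167%, 0.000155% and 0.000062% in any culture. COL1A1 was the only fibroblast marker with reads, at 9 to 45 per untreated culture and 43 to 294 with WA. Of the 7 tested plasma cell markers, 1 rose and 1 fell with WA in each line. These are 28.6% of the tested markers, against 14% of all genes tested in MM1R and 10.5% in MM1S. The surface receptor SLAMF7 rose by 0.40 in MM1R and by 0.53 in MM1S on the log2 scale (adjusted p = 0.026 and 0.0069, edgeR quasi-likelihood test, Benjamini-Hochberg adjustment), and the plasma cell factor IRF4 fell by 0.96 and by 0.73 (adjusted p = 0.0032 and 0.019 by edgeR). Between the lines 1 of the 7 markers passed, both untreated and under WA, against 11.9% and 12% of all genes tested. This was CD38, with log2 fold changes of MM1R over MM1S of -1.04 and -0.87 (adjusted p = 0.023 and 0.047 by edgeR). With single cultures left out CD38 passed in 7 and 3 of the 12 fits. For WA, a fit that pairs cultures by passage called 5 of the 7 markers in each line. The share of all genes was 29.1% in MM1R and 24.1% in MM1S. Of the markers, 2 were higher and 3 lower in MM1R, and 1 was higher and 4 lower in MM1S. The part of these markers and of COL1A1 in the results below was not tested. In bulk RNA, fewer cells of a type and less RNA per cell cannot be told apart. The p-values of fits without pairing measure the spread between these cultures, which differed in passage. Those of fits with passage as replicate block measure the spread of the changes within a passage.

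The 51 genes together took 2.71 to 2.98% of the reads in untreated MM1S and 3.17 to 3.6% in untreated MM1R, and the lines did not overlap. That gap lay in JCHAIN and MZB1, which together took 0.645 to 0.849% in MM1S and 1.14 to 1.39% in MM1R. Of the pair only JCHAIN separated the lines, with 115003 to 140561 reads in untreated MM1S and 187208 to 243590 in untreated MM1R. MZB1 had 9932 to 17285 and 14430 to 15509 reads, which overlapped. The other 49 genes took 2.07 to 2.24% and 2.03 to 2.24%, which overlapped. With WA the share of the 51 genes was 2.57 to 3.04% in MM1S and 2.75 to 3.48% in MM1R, and each range overlapped that of the untreated cultures of its line. Per length, as RPKM (reads scaled by library size and transcript length), JCHAIN was the highest in every group. This gene encodes the chain that joins IgA and IgM units. Its mean level was 5000 RPKM in untreated MM1S and 9330 RPKM in untreated MM1R. Next in untreated MM1S came CALR (calreticulin, 1080 ± 49 RPKM), HSP90B1 (GRP94, 813 ± 81.9), MZB1 (732), SSR2 (716), XBP1 (688 ± 34) and P4HB (protein disulphide isomerase, 673; SD, n = 3). HSPA5 followed at rank 11 with 273 ± 12.3 RPKM. The 3 sensors were far lower and close to each other, at 27.5 ± 3.17 RPKM for ATF6, 26.9 ± 2.83 for ERN1 and 22.3 ± 3.58 for EIF2AK3, and these neighbours did not differ beyond their spread. ERO1B (1.6 RPKM), DERL3 (1.75) and HYOU1 (2.41) were the lowest of the tested genes as counted. DERL3 and HYOU1 each have a further entry at 0 reads. The handling of reads that match several places was not given, so that their true levels are uncertain. Lengths are those of the canonical GENCODE transcript, and levels per length carry any error in them.

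In MM1R, few of these genes passed with WA in the fit of the 4 groups. Of the 50 tested genes, 2 (4%) passed an adjusted p of 0.05, against 14% of all genes tested. HSPA13, a microsomal relative of the Hsp70 chaperones, was the only one to rise (1 of 50, against 7.55% of all genes), and ERO1A, the oxidase that recharges protein disulphide isomerases, was the only one to fall (1 of 50, against 6.46%). The 50 genes had a median log2 fold change of -0.01, against 0.01 over all genes tested. The median size of change was 0.13 against 0.25, and 3 of 50 genes (6%) reached 0.5 in size against 23.5% of all. The set holds abundant genes, and among genes with a mean of at least 10 CPM (reads scaled to a fixed library size after TMM normalization) the share called was 17.3%. A fit that pairs cultures by passage, given below, called 10 of 50 genes, against 29.1% of all genes.

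HSPA13 (chromosome 21, 15743436 to 15755805 on the minus strand of GRCh37) had 103, 104 and 75.6 CPM in untreated MM1R of passage 4, 6 and 7. With WA it had 141, 142 and 182 CPM. Every WA culture was above every untreated one. The log2 fold change was 0.72 (standard error 0.21, adjusted p = 0.032, edgeR quasi-likelihood test, Benjamini-Hochberg adjustment, n = 3), or 1.65-fold. ERO1A (chromosome 14, 53106633 to 53162618 on the minus strand of GRCh37) had 95.9, 95.7 and 88.2 CPM in untreated MM1R and 69.2, 69.8 and 59.4 CPM with WA. Again the groups did not overlap. Its log2 fold change was -0.50 (standard error 0.14, adjusted p = 0.030 by edgeR), a fall to 0.709 of the untreated level. Both calls were close to the limit. With single cultures left out the number of genes called in MM1R lay between 0 and 3, while 6.57 to 16.7% of all genes were called. The adjusted p of HSPA13 (edgeR) was 0.073 and 0.13 without untreated MM1R of passage 6 and 7, and 0.055, 0.051 and 0.12 without WA-treated MM1R of passage 4, 6 and 7. That of ERO1A (edgeR) was 0.061, 0.11 and 0.052 without untreated MM1R of passage 4, 6 and 7, and 0.063, 0.070 and 0.15 without the WA cultures of these passages.

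Among the sensors and transcription factors, 0 of 5 passed in MM1R. EIF2AK3 came closest, with 105, 92.7 and 70.5 CPM untreated and 126, 122 and 148 CPM with WA in passage 4, 6 and 7. These groups did not overlap, and the log2 fold change was 0.56 (standard error 0.18, adjusted p = 0.056, by edgeR). It passed in 4 of the 12 fits with 1 culture left out. ATF6 had 251, 275 and 284 CPM untreated and 252, 286 and 253 CPM with WA, and ERN1 had 315, 259 and 210 CPM untreated and 247, 234 and 278 CPM with WA. Both pairs of groups overlapped, and the intervals of the log2 fold change ran from -0.27 to 0.20 for ATF6 and from -0.40 to 0.30 for ERN1 (95%). XBP1 had 1279, 1578 and 1659 CPM untreated and 1357, 1406 and 1058 CPM with WA. Its values overlapped between the groups, and its log2 fold change was -0.24 (95% interval -0.54 to 0.05).

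Among the chaperones 1 of 8 passed in MM1R, namely HSPA13. BiP (HSPA5, chromosome 9, 127997132 to 128003661 on the minus strand of GRCh37) had 1228, 1286 and 1188 CPM untreated and 1375, 1460 and 1243 CPM with WA. The WA cultures lay higher in every passage but overlapped the untreated ones, and the log2 fold change was 0.14 (95% interval -0.11 to 0.39). Of the degradation genes 0 of 10 passed. HERPUD1, an ER stress target that helps to organise the degradation complex, had 1050.5, 876 and 763 CPM untreated and 806, 811 and 918 CPM with WA, which overlapped (log2 fold change -0.09, 95% interval -0.41 to 0.24). The calls in the other groups were 0 of 3 in the lectin cycle, 1 of 6 in oxidative folding (ERO1A), 0 of 11 for translocon and signal peptidase, 0 of 4 for ER exit, 0 of 2 for plasma cell secretion and 0 of 1 for ER calcium. The log2 fold changes of the 11 translocon and signal peptidase genes all lay between -0.22 and 0.20. Groups did not overlap for 6 of the 50 genes in MM1R (12%, against 33.3% of all genes tested).

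**Figure D1:**
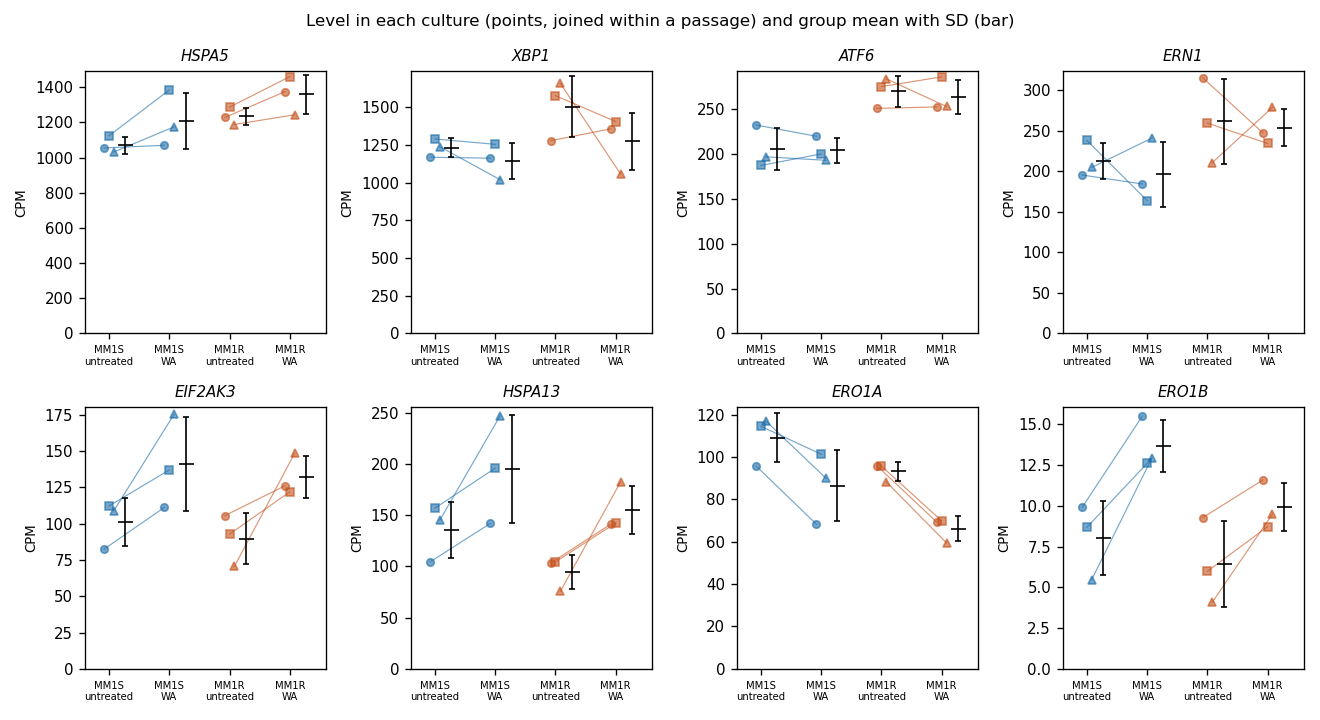
Level of 8 genes (CPM after TMM scaling, linear axis from 0) in each of the 12 cultures, in columns of untreated and WA-treated MM1S and MM1R. Points are cultures, lines join cultures of the same passage, and the bar gives the group mean and SD (n = 3). HSPA13, EIF2AK3 and ERO1B were higher and ERO1A lower with WA in each of the 6 passages, while ATF6, ERN1 and XBP1 had pairs in both directions.

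In MM1S, 0 of the 50 genes (0%) passed with WA by edgeR, against 10.5% of all genes tested (6.25% higher and 4.23% lower, and 12.8% among genes with a mean of at least 10 CPM). At an unadjusted p under 0.05 there were 6 of the 50, against 3503 of all 14085 genes. DESeq2 called 2 (4%), ERO1B and SEL1L, against 14% of all genes. The median log2 fold change was 0.02, the same to 2 decimals as over all genes (0.02), and 3 of 50 genes (6%) reached 0.5 in size against 21.4% of all. HSPA13 had 104, 157 and 145 CPM untreated and 142, 196 and 247 CPM with WA in passage 16, 22 and 23. These groups overlapped (log2 fold change 0.53, adjusted p = 0.12, edgeR quasi-likelihood test, Benjamini-Hochberg adjustment). ERO1A had 95.7, 114 and 117 CPM untreated and 68.3, 101 and 90.0 CPM with WA, also with overlap (log2 fold change -0.34, adjusted p = 0.15, by edgeR). Groups did not overlap for 5 genes (10%, against 30.3% of all). These were CANX, SEC61A1, ERO1B, CREB3L2 and UGGT1, each higher with WA. The fit that pairs cultures by passage, given below, called 8 of 50 genes in MM1S, against 24.1% of all genes.

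None of the 5 sensors and transcription factors passed in MM1S. EIF2AK3 had 82.5, 112 and 109 CPM untreated and 111, 137 and 175 CPM with WA, and its groups overlapped by 1 culture (log2 fold change 0.48, 95% interval 0.09 to 0.87, adjusted p = 0.11, by edgeR). ATF6 had 232, 187 and 197 CPM untreated and 220, 200 and 193 CPM with WA. ERN1 had 195, 238 and 204 CPM untreated and 184, 164 and 241 CPM with WA. XBP1 had 1169, 1290 and 1239 CPM untreated and 1163, 1255 and 1020 CPM with WA. All 3 overlapped between the groups, with intervals of the log2 fold change from -0.25 to 0.23, from -0.47 to 0.24 and from -0.40 to 0.19. HSPA5 had 1055, 1124 and 1032 CPM untreated and 1070, 1384 and 1175 CPM with WA. The WA culture was higher in each passage, but the groups overlapped (log2 fold change 0.18, 95% interval -0.07 to 0.42). HERPUD1 had 571, 774 and 624 CPM untreated and 564, 584 and 747 CPM with WA, again with overlap (95% interval -0.39 to 0.27).

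Deviations from the group mean correlated at 0.178 to 0.713 between cultures of the same passage, though in MM1S not always above those of different passages. With passage number as replicate block more of these genes passed. In MM1R the blocked fit called 10 of 50 genes, against 29.1% of all genes. HSPA13 (log2 fold change 0.72), ERO1B (0.66), EIF2AK3 (0.57), CREB3L2 (0.44), CRELD2 (0.30) and SEC24D (0.24) were higher with WA, while ERO1A (-0.50), SEL1L (-0.38), DERL1 (-0.24) and SSR2 (-0.23) were lower. In MM1S it called 8 of 50, against 24.1% of all genes. ERO1B (0.80), HSPA13 (0.51), EIF2AK3 (0.47), CREB3L2 (0.38) and CANX (0.27) were higher, and SEL1L (-0.63), ERO1A (-0.35) and SDF2L1 (-0.33) were lower. CREB3L2 encodes a transmembrane transcription factor cleaved like ATF6, SEL1L is the adaptor of the ubiquitin ligase SYVN1, CANX is calnexin, and SEC24D is a coat protein of vesicles that leave the ER. The blocked adjusted p (edgeR) was 0.0078 in MM1R and 0.023 in MM1S for EIF2AK3, and 0.0013 and 0.012 for ERO1A. Of the 7 genes with the ERSE letters, ERO1B passed in both lines in the blocked fit, CRELD2 in MM1R and CANX in MM1S, while HSPA5, HSP90B1, XBP1 and CALR passed in neither.

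Over the 6 pairs of passages, 22 of 50 genes had a log2 change of the same sign in all, against 40% of all genes tested. Of these, 13 were higher with WA (HSPA5, HSPA13, EIF2AK3, CANX, CRELD2, SYVN1, SEC24D, SSR1, ERO1B, CREB3L2, OS9, UGGT1 and LMAN1) and 9 were lower (PDIA4, SDF2L1, SEL1L, DERL1, SEC23B, SSR2, SPCS1, ERO1A and MZB1). Sizes differed between pairs. Passage 7 of MM1R had a log2 change of 1.26 for HSPA13 and 1.07 for EIF2AK3, against 0.45 and 0.26 in passage 4 of the same line. ERO1A was more even, with -0.47, -0.45 and -0.57 in passage 4, 6 and 7 of MM1R and -0.49, -0.18 and -0.38 in passage 16, 22 and 23 of MM1S. SEL1L ranged from -0.85 in passage 16 of MM1S to -0.12 in passage 7 of MM1R. ERO1A and ERO1B, which encode the 2 oxidases of the same reaction, had changes of opposite sign in all 6 pairs, with ERO1B at 0.62, 0.51 and 1.17 in MM1S and 0.31, 0.51 and 1.12 in MM1R.

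**Figure D2:**
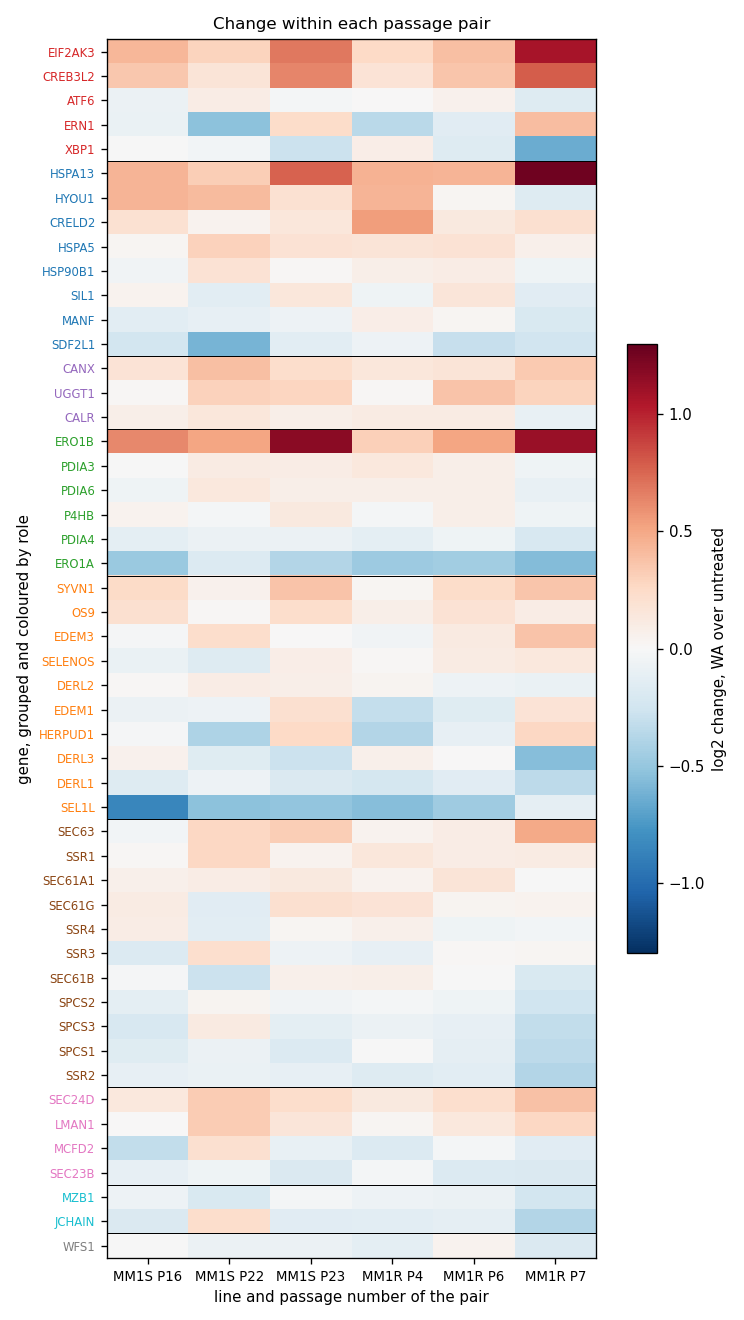
Log2 change of CPM with WA over untreated (pseudocount 0.5 CPM, colour scale from blue for lower to red for higher) for the 50 tested genes in rows and the 6 pairs of cultures of the same passage in columns, with gene names grouped and coloured by role. HSPA13 reached 1.26 in passage 7 of MM1R, and SEL1L reached -0.85 in passage 16 of MM1S, while most rows stayed pale.

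Whether WA acted differently in the lines was tested as an interaction. It called 0 of 50 genes, against 0% of all genes tested by edgeR, where 0 of the 50 and 97 of all genes had an unadjusted p under 0.05. DESeq2 called 1 gene in all and 0 of the 50, and the fit with replicate block called 0 of the 50 by either tool. HYOU1, a chaperone of the Hsp110 family, had the smallest unadjusted p of the 50 in this fit across all genes, with log2 fold changes of 0.12 in MM1R and 0.38 in MM1S (difference -0.26, 95% interval -0.81 to 0.29). For HSPA13 the difference was 0.19 (95% interval -0.43 to 0.81) and for ERO1A it was -0.16 (95% interval -0.58 to 0.26). The calls of HSPA13 and ERO1A in MM1R alone were thus not shown to differ from the values in MM1S.

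**Figure D3:**
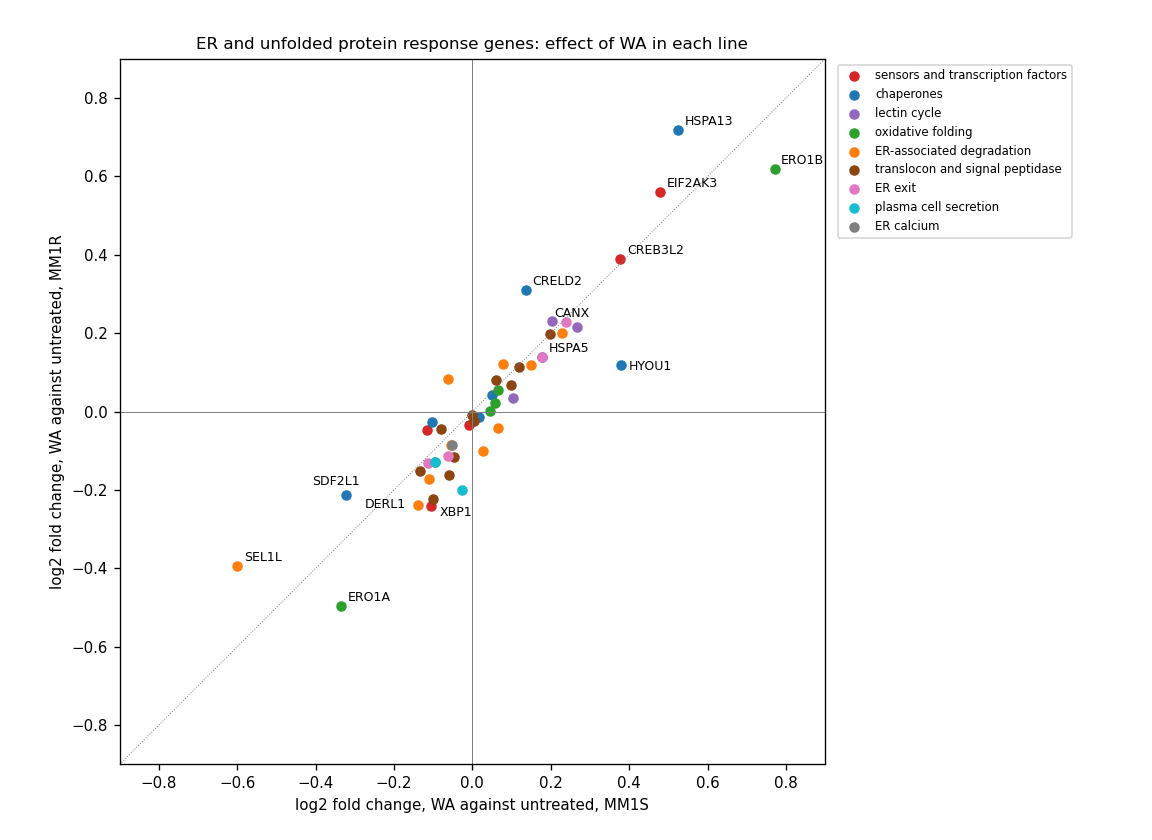
Log2 fold change with WA (edgeR) of each of the 50 tested genes, in MM1S on the horizontal and in MM1R on the vertical axis, coloured by role, with the dotted line marking equal change. HSPA13, EIF2AK3, ERO1B and CREB3L2 lay above 0 and SEL1L, ERO1A and SDF2L1 below 0 in both lines, and most genes clustered around 0.

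The untreated lines were compared next, of which MM1R is GC-resistant and MM1S is GC-sensitive. GC resistance, line and passage number cannot be told apart in this comparison. MM1R had more mRNA of the immunoglobulin joining chain (JCHAIN), the derlin DERL3, the ER membrane protein WFS1, the BiP exchange factor SIL1 and the sensor ATF6, and less of the isomerase PDIA3 and the ligase adaptor SEL1L. Of the 50 genes, 7 (14%) passed between untreated MM1R and MM1S, against 11.9% of all genes tested. Higher in MM1R were 5 of 50 (against 6.44%) and lower were 2 of 50 (against 5.5%). Groups did not overlap for 18 genes (36%, against 32.3% of all). The median log2 fold change was 0.07 against 0.01 over all genes, and 8 genes (16%) reached 0.5 in size against 23.4%. At the limits the authors set for comparing the lines, which are a log2 fold change of 1 in size at an adjusted p of 0.01, only DERL3 passed (1 of 50, against 2.97% of all genes).

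JCHAIN (chromosome 4, 71521258 to 71547534 on the minus strand of GRCh37) had 7282, 6305 and 5718 CPM in untreated MM1S of passage 16, 22 and 23 and 12681, 12392 and 10915 CPM in untreated MM1R of passage 4, 6 and 7. The lines were far apart, with a log2 fold change of 0.90 (standard error 0.16, adjusted p = 0.0029, edgeR quasi-likelihood test, Benjamini-Hochberg adjustment), or 1.86-fold. DERL3, a derlin of ER-associated degradation, had 6.22, 5.58 and 4.43 CPM in MM1S and 10.0, 11.4 and 13.5 CPM in MM1R. It showed the largest fold of the 50 genes, with a log2 fold change of 1.11 (standard error 0.22, adjusted p = 0.0050, by edgeR), or 2.15-fold. PDIA3 (ERp57), which forms disulphides in glycoproteins held by calnexin and calreticulin, had 657, 679 and 585 CPM in MM1S and 380, 407 and 355 CPM in MM1R. It lies on chromosome 15 from 44038592 to 44065477 on the plus strand of GRCh37. The groups did not overlap, and the log2 fold change was -0.75 (standard error 0.12, adjusted p = 0.0010, by edgeR), a level of 0.594 of that in MM1S.

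WFS1 (wolframin, of ER calcium balance) had 59.1, 63.7 and 55.1 CPM in MM1S and 92.0, 89.6 and 80.9 CPM in MM1R (log2 fold change 0.56, standard error 0.12, adjusted p = 0.0068, by edgeR). SIL1, which exchanges the nucleotide of BiP, had 37.3, 31.5 and 25.5 CPM in MM1S and 49.2, 49.9 and 52.1 CPM in MM1R (0.68, standard error 0.15, adjusted p = 0.011 by edgeR). The groups did not overlap for either gene. SEL1L had 459, 653 and 670 CPM in MM1S and 374, 366 and 277 CPM in MM1R (-0.81, standard error 0.21, adjusted p = 0.023 by edgeR). ATF6, with the values given above, was higher in MM1R by a log2 fold change of 0.39 (standard error 0.11, adjusted p = 0.034 by edgeR), and was the only sensor to pass. No lines overlapped for these 2 genes either, but their calls depended on single cultures. Without untreated MM1S of passage 22 or 23 or untreated MM1R of passage 6 or 7, the adjusted p (edgeR) was 0.16, 0.14, 0.12 and 0.11 for ATF6 and 0.093, 0.096, 0.057 and 0.10 for SEL1L. That of SIL1 (edgeR) was 0.062 without untreated MM1S of passage 23. Without that culture 4 of the 50 genes passed (against 5.85% of all genes), and without untreated MM1S of passage 22 it was 5 (against 5.68%). JCHAIN, DERL3, WFS1 and PDIA3 passed in all 12 fits with 1 culture left out.

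The lines were also compared under WA. Both comparisons of the lines came from 1 fit with a shared estimate of the spread, and the WA cultures were of the same passages as the untreated ones, so that they are not independent. Of the 50 genes 7 (14%) passed between MM1R and MM1S under WA, against 12% of all genes tested. JCHAIN, DERL3, WFS1, SIL1, ATF6 and SDF2L1 were higher in MM1R (6, against 6.34%) and PDIA3 was lower (1, against 5.66%). With the study's stricter limits DERL3 alone passed (1 of 50, against 3.04%). Groups did not overlap for 17 genes (34%, against 29.1%). Of the 7 genes called in each of these comparisons, 6 were the same.

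Under WA, PDIA3 had 655, 731 and 626 CPM in MM1S of passage 16, 22 and 23 and 417, 429 and 341 CPM in MM1R of passage 4, 6 and 7 (log2 fold change -0.76, standard error 0.12, adjusted p = 0.00094, edgeR quasi-likelihood test, Benjamini-Hochberg adjustment). DERL3 had 6.50, 4.96 and 3.55 CPM against 10.5, 11.4 and 9.07 CPM (1.05, standard error 0.22, adjusted p = 0.0076, by edgeR). JCHAIN had 6405, 7384 and 5172 CPM against 11514, 11463 and 8376 CPM (0.73, standard error 0.16, adjusted p = 0.011 by edgeR). None of these overlapped between the lines. WFS1 had 58.7, 60.6 and 52.2 CPM against 84.1, 92.2 and 71.1 CPM (0.53, adjusted p = 0.0098 by edgeR), and SIL1 had 38.6, 28.6 and 28.2 CPM against 47.3, 55.6 and 46.9 CPM (0.65, adjusted p = 0.015 by edgeR). SDF2L1, part of the BiP chaperone complex, had 40.4, 25.2 and 27.1 CPM against 48.9, 51.4 and 48.2 CPM (0.68, adjusted p = 0.030 by edgeR). ATF6 was higher by 0.37 (adjusted p = 0.044 by edgeR). The lines did not overlap for these 4 genes. SEL1L, at 255, 451 and 470 CPM in MM1S and 254, 266 and 255 CPM in MM1R, overlapped and did not pass (-0.60, adjusted p = 0.077 by edgeR).

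Single cultures moved the count under WA between 2 and 13, and the share of all genes called moved between 5.61 and 20.5%. Without WA-treated MM1S of passage 16, 13 genes passed (against 20.5% of all genes). Without that of passage 22 it was 4 (against 5.61%), and without that of passage 23 it was 2 (PDIA3 and DERL3, against 6.36%). Without WA-treated MM1R of passage 6 it was 4 (against 7.24%). The adjusted p (edgeR) for SDF2L1 was 0.14 and 0.12 without WA-treated MM1S of passage 22 and 23, and 0.071, 0.076 and 0.051 without WA-treated MM1R of passage 4, 6 and 7. That of SIL1 (edgeR) was 0.074, 0.070 and 0.055 without WA-treated MM1S of passage 22 and 23 and WA-treated MM1R of passage 6. Without WA-treated MM1S of passage 23 it was 0.061 for JCHAIN and 0.058 for WFS1 (edgeR). ATF6 passed in 4 of the 12 fits, with an adjusted p (edgeR) of 0.15 and 0.16 without WA-treated MM1S of passage 22 and 23, of 0.073, 0.12 and 0.052 without WA-treated MM1R of passage 4, 6 and 7, of 0.059 and 0.064 without untreated MM1S of passage 22 and 23, and of 0.070 without untreated MM1R of passage 6.

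**Figure D4:**
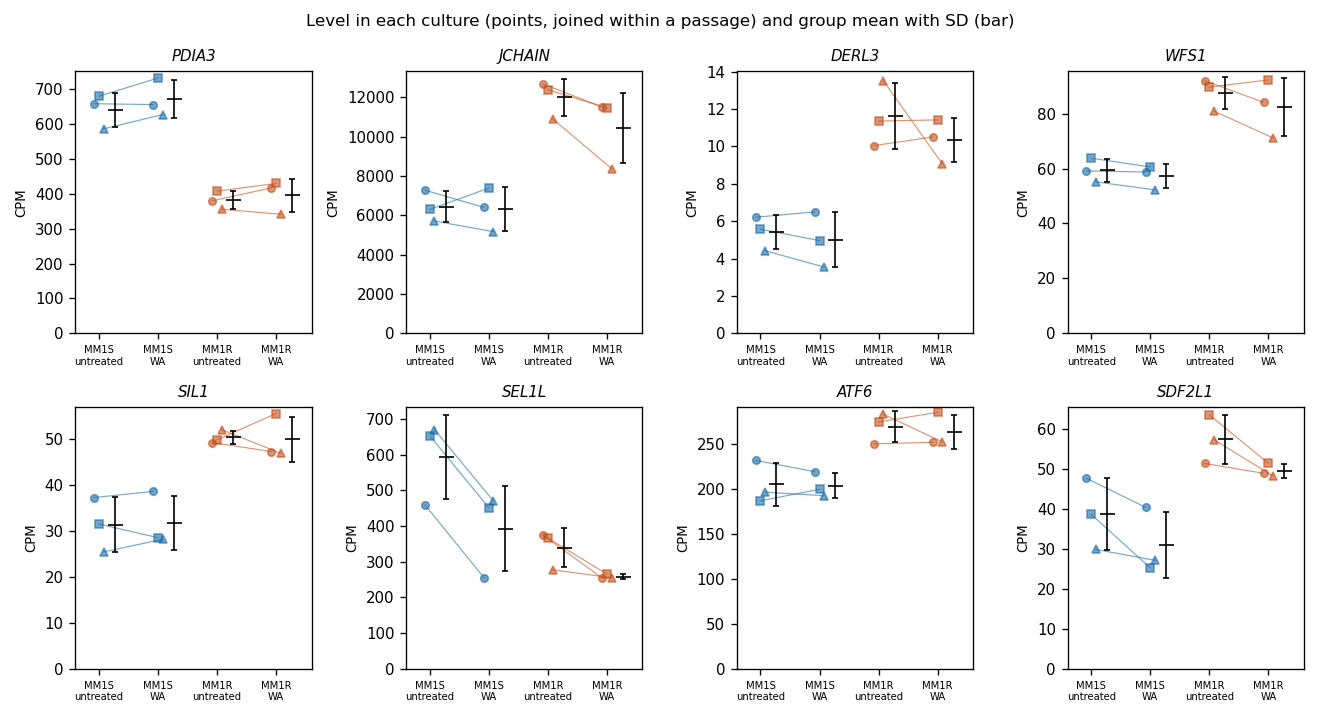
Level of 8 genes (CPM after TMM scaling, linear axis from 0) in each culture of untreated and WA-treated MM1S and MM1R, with lines between cultures of the same passage and a bar for the group mean and SD (n = 3). PDIA3 was lower and JCHAIN, DERL3, WFS1, SIL1, ATF6 and SDF2L1 were higher in all MM1R cultures than in any MM1S culture of the same treatment, whereas SEL1L overlapped between the lines under WA.

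Other lists of the same pathways, named by function, put these values in context. Of all genes tested, 14% passed with WA in MM1R (7.55% higher, 6.46% lower) and 10.5% in MM1S (6.25% higher, 4.23% lower). Of 12 tested genes of the PERK and ATF4 arm, 6 (50%) rose with WA in MM1R and 2 (16.7%) in MM1S, and none fell. DDIT4, which restrains mTORC1, rose by 3.66 in MM1R and by 3.56 in MM1S on the log2 scale (adjusted p = 0.00070 and 0.0011, edgeR quasi-likelihood test, Benjamini-Hochberg adjustment). PPP1R15A (GADD34), which returns the PERK target eIF2α to its unphosphorylated state, rose by 3.55 and by 2.63 (adjusted p = 0.0040 and 0.022 by edgeR). DDIT3 (CHOP) rose by 3.06 in MM1R (adjusted p = 0.013 by edgeR). Much of the size came from WA-treated MM1R of passage 7, in which the genes of this arm took 0.373% of reads against 0.164 and 0.168% in passage 4 and 6. With WA, DDIT3 had 159 CPM in passage 7 and at most 30.2 CPM in passage 4 and 6, and PPP1R15A had 180, 185 and 1123 CPM in passage 4, 6 and 7. Without that culture the log2 fold change in MM1R was 1.61 for DDIT3 (adjusted p = 0.075 by edgeR), 2.14 for PPP1R15A (adjusted p = 0.011) and 3.01 for DDIT4 (adjusted p = 0.0022). DDIT3 did not pass without untreated MM1R of passage 6 or 7 either (adjusted p = 0.059 and 0.057 by edgeR). In MM1S, PPP1R15A had 294, 165 and 654 CPM with WA in passage 16, 22 and 23. Its adjusted p (edgeR) there was 0.062, 0.051 and 0.075 without untreated MM1S of passage 16, 22 and 23, and 0.089 without WA-treated MM1S of passage 23, where the log2 fold change was 1.94. DDIT4 passed in both lines in all 12 fits with 1 culture left out. The count for the arm in MM1R was 2 without untreated passage 6 or 7 or WA-treated passage 7, and 4 without untreated passage 4, and it reached 9 without WA-treated MM1S of passage 16. In MM1S it was 1 without any of the untreated MM1S cultures or WA-treated passage 23, 3 without WA-treated MM1S of passage 16 or MM1R of passage 6, and 4 without WA-treated MM1S of passage 22 or MM1R of passage 7. Over the fits with 1 culture left out, 6.57 to 16.7% of all genes passed in MM1R and 5.03 to 11.2% in MM1S. DDIT4, PPP1R15A and DDIT3 also answer to stresses outside the ER. The interaction called 0 of the 12 genes. The median log2 fold change of this arm was 0.93 in MM1R and 0.65 in MM1S, against -0.01 and 0.02 for the 50 genes. Without WA-treated MM1S of passage 23 it was 0.22 in MM1S, and without WA-treated MM1R of passage 7 it was 0.72 in MM1R.

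Further IRE1, XBP1 and ATF6 targets and ER chaperones gave 3 calls among 25 tested genes (12%) in each line, against 14% of all genes in MM1R and 10.5% in MM1S. DNAJB9 (ERdj4), a cochaperone of BiP, rose by 0.90 in MM1R and by 0.62 in MM1S (adjusted p = 0.00046 and 0.0063 by edgeR), and DNAJC3 (P58IPK) rose by 0.52 and by 0.50 (adjusted p = 0.029 and 0.044 by edgeR). TXNDC11, a thioredoxin-like ER protein, fell by 0.59 and by 0.52 (adjusted p = 0.0020 and 0.0054 by edgeR). Of 22 N-glycosylation genes 0 passed in either line. At an unadjusted p under 0.05 there were 1 in MM1R and 2 in MM1S, against 3997 and 3503 of all 14085 genes. Of 19 genes of targeting and translocation, 1 (5.26%) passed in MM1R (SRP68 of the signal recognition particle, -0.37) and 0 in MM1S.

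Among 22 further genes of ER-associated degradation, 5 (22.7%) passed in MM1R (2 higher, 3 lower), against 14% of all genes. In MM1S 4 (18.2%) passed (3 higher, 1 lower), against 10.5%. In MM1R the conjugating enzyme UBE2J2 had a log2 fold change of -0.51, TMUB1 of -0.44 and the ER lipid raft protein ERLIN2 of 0.52. In MM1S it was 0.53 for ERLIN2, 0.49 for JKAMP and 0.40 for the ligase RNF185. Of 29 genes of COPII vesicles, cargo and retrieval, 5 (17.2%) passed in MM1R (3 higher, 2 lower) and 2 (6.9%) in MM1S (both higher), against the same shares of all genes. The cargo lectin LMAN2L rose by 1.07 and by 1.28 (adjusted p = 0.00087 and 0.00028 by edgeR), MIA3 (TANGO1) rose by 0.45 and by 0.42, and the coat subunit SEC23A fell by 0.59 in MM1R. Between the untreated lines, the calls of these 6 lists were PPP1R15B (-0.51), ERGIC1 (0.53), ALG1 (0.35), UGGT2 (-0.49), GET1 (0.64), SEC61A2 (0.58), KDELR2 (0.47) and SEC13 (0.33). In the order of the lists above, these were 1 of 12, 1 of 25, 2 of 22, 2 of 19, 0 of 22 and 2 of 29, against 11.9% of all genes. Under WA the calls were DDIT4 (1.77), DNAJB9 (0.43), TMX1 (-0.39), MAN1B1 (0.39) and KDELR2 (0.38). In the same order, these were 1 of 12, 2 of 25, 1 of 22, 0 of 19, 0 of 22 and 1 of 29, against 12%. With single cultures left out, the number of calls ranged from 1 to 5 in MM1R and 0 to 5 in MM1S for the further degradation genes, and from 1 to 6 and 1 to 4 for the COPII list. The share of all genes called ranged from 6.57 to 16.7% and from 5.03 to 11.2%. DNAJB9, LMAN2L and TXNDC11 passed in both lines in all 12 such fits, whereas DNAJC3 passed in 8 in MM1R and 3 in MM1S. Each of the genes named between the untreated lines or under WA passed in 3 to 9 of the 12 fits. With passage as replicate block (29.1% of all genes called in MM1R and 24.1% in MM1S), the calls in MM1R and MM1S were 8 and 4 of 12 for the PERK and ATF4 arm, 7 and 6 of 25 for the further targets and chaperones, 4 and 1 of 22 for N-glycosylation, 2 and 3 of 19 for targeting, 10 and 7 of 22 for degradation and 9 and 7 of 29 for COPII.

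**Figure D5:**
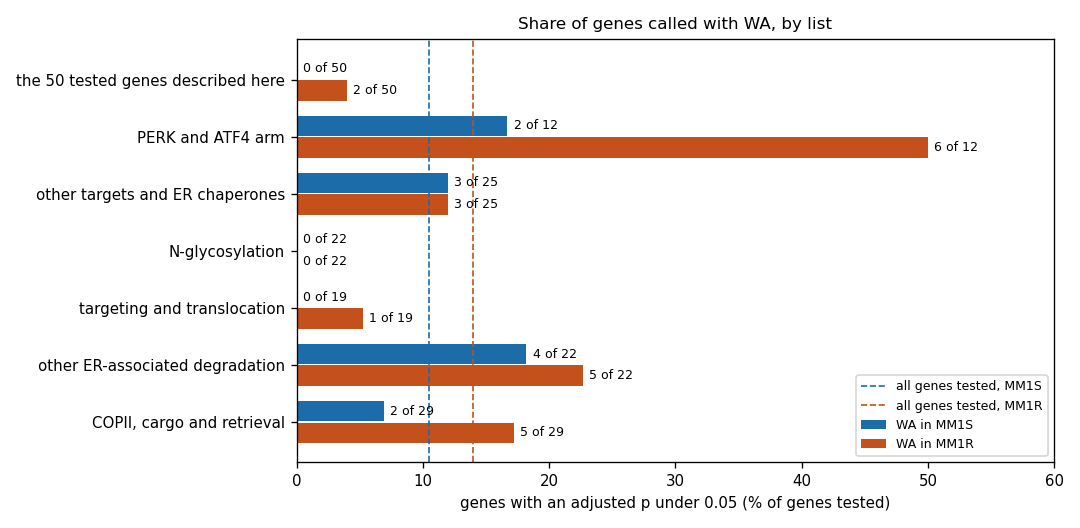
Share of tested genes with an adjusted p under 0.05 (edgeR) with WA, in percent on the horizontal axis, for the 50 genes and 6 other lists, with blue bars for MM1S, orange bars for MM1R, the counts beside the bars and dashed lines for all genes tested (10.5% in MM1S and 14% in MM1R). The PERK and ATF4 arm reached 6 of 12 in MM1R (2 to 9 with single cultures left out), while the 50 genes gave 2 of 50.

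The genes with the ERSE letters include the classical chaperone targets. Of the 7 such genes, 0 passed in either line by edgeR without the block (against 14% and 10.5% of all genes). With passage as replicate block 2 of 7 passed in each line (ERO1B and CRELD2 in MM1R, ERO1B and CANX in MM1S), against 29.1% and 24.1% of all genes, and DESeq2 without the block called ERO1B in MM1S. Their log2 fold changes ran from -0.24 (XBP1) to 0.62 (ERO1B) in MM1R, with a median of 0.14, and from -0.10 (XBP1) to 0.77 (ERO1B) in MM1S, also with a median of 0.14. The 38 tested genes whose window was read and lacked the letters had medians of -0.03 and 0.00. The 3 genes with ERSE-II (HYOU1, SDF2L1 and HERPUD1) had medians of -0.09 and -0.06.

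Several levels depend on how reads were assigned to entries of the count table. CANX stands beside a further entry, CANX_1, which held 17516 reads over the 12 cultures against 18267 of CANX. With both summed, CANX had log2 fold changes with WA of 0.23 in MM1R and 0.27 in MM1S (adjusted p = 0.17 and 0.13, edgeR). HYOU1 and DERL3 also have a further entry each, at 0 reads, beside 2829 and 1776 reads of their own. The handling of reads that match 2 places was not given in the sources used here, so that levels of CANX, HYOU1 and DERL3 are uncertain. The strand setting was not given either, and without strand the reads of a gene and of its antisense partner cannot be told apart. Exons of 25 of the 51 genes overlap those of a gene on the opposite strand (GENCODE, GRCh37). DERL3 shares 88.8% of its transcript with SMARCB1, which had 1 read in all 12 cultures, SPCS1 shares 71.4% with NEK4, PDIA6 shares 45.3% with ATP6V1C2, and PDIA3 shares 16.9% with ELL3. With opposite-strand genes that have no symbol, OS9 shares 26.1%, SSR3 25.4%, P4HB 21.7% and EIF2AK3 17.2%. NEK4 and ATP6V1C2 did not pass in any of these comparisons. EIF2AK3-DT, named here after its values were seen, is the transcript that starts beside EIF2AK3, with 16 to 67 reads per culture. It rose with WA by 1.16 in MM1R and by 1.58 in MM1S (adjusted p = 0.037 and 0.011 by edgeR). The pseudogene PDIA3P1 had 819 reads against 116698 of PDIA3.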

How the data were processed

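RNA of 12 cultures was sequenced, and groups, passage numbers, dose and time were taken from the labels. The authors mapped reads to hg19 with STAR 2.7.3a after FastQC 0.11.5, and deposited raw counts per gene without normalization. The annotation and the strand setting are not given in the sources used here. The 51 genes and all other lists were chosen with earlier results of these data known. A further deposited table of normalized values was not used. Counts of replicate cultures differed by more than sampling noise, with a chi-square of 8.74 to 48.7 for each degree of freedom, so that each culture was counted as 1 replicate.

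Counts were analysed with edgeR 4.0.16 in R 4.3.3 (limma 3.58.1 and DESeq2 1.42.0 for alternatives). Genes were kept by filterByExpr (minimum count 10) and scaled by TMM. The quasi-likelihood test with Benjamini-Hochberg adjustment over all 14085 genes was applied at an adjusted p of 0.05, in 1 fit of all 12 libraries and 4 groups. Changes within a passage used CPM with a pseudocount of 0.5. Scripts were tested on simulated data. Values in every culture are given for HSPA5, ATF6, ERN1, EIF2AK3, XBP1 and HERPUD1 and for up to 6 genes with the smallest p past the limit in each comparison. Each further gene past the limit is named, and genes outside the 51 are named for up to 3 calls per list. Other genes named in the text are those of counts of non-overlapping or same-direction groups and of the fit with replicate block.

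Deviations from the group mean were correlated between untreated and WA cultures to see if passage numbers pair them. The correlations of same-passage cultures lay between 0.178 and 0.713, all over 0.1, and the labels give the shared passage, so that a fit with passage as replicate block was treated as paired. The highest correlation between different passages was 0.366, between untreated MM1S of passage 23 and WA-treated MM1S of passage 22. Untreated MM1S of passage 22 correlated at 0.253 with the WA culture of its own passage and at 0.309 with that of passage 23. Lines share no passage, so that the block cannot enter comparisons of lines.

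Transcript lengths, coordinates and exon overlaps are from GENCODE v44lift37 (GRCh37), and promoters from RefSeq (GRCh38.p14). Alternatives were DESeq2 as the test or for scaling, no filter on reads or a minimum of 10 in all libraries, a fit of the 6 compared libraries alone, the replicate block with either tool, stricter limits, the omission of each culture in turn, and, chosen after seeing the data, the sum of both CANX entries and the omission of each culture in turn for the other lists. Counts were made without molecular identifiers, and their number limits the precision of low genes such as DERL3.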

Additional observations from a re-analysis of the deposited data

Results flagged for a closer look

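The count table held signal in entries that the comparisons did not use. CANX_1 carried 17516 reads over the 12 cultures, close to the 18267 of CANX itself. MMP24-AS1-EDEM2, a read-through entry whose RefSeq model covers the locus of EDEM2, carried 134 reads, with 6 to 18 per culture, whereas EDEM2 had 1 to 8. Both lie above the 3 reads that a count of 0 allows.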

How the results depend on the processing

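For counts of genes called among the 50 (WA in MM1R, WA in MM1S, MM1R against MM1S untreated, MM1R against MM1S under WA), with 2, 0, 7 and 7 by edgeR, some alternatives gave counts more than 1.5 times away. With no filter on low counts it was 4 of 51 for WA in MM1R and 4 of 51 in MM1S, against 8.85% and 7.15% of all genes. DESeq2 gave 2 for WA in MM1S and 11 between the untreated lines, against 14% and 14.8% of all genes. The replicate block (paired by passage) gave 10 and 8 for WA in MM1R and MM1S by edgeR, against 29.1% and 24.1% of all genes. By DESeq2 it gave 9 and 7, against 24.3% and 20.8%. It changed no call of the interaction. An adjusted p of 0.01 left 0 genes for WA in MM1R, 4 between the untreated lines and 3 under WA, against 5.76%, 4.83% and 4.94% of all genes. With a log2 fold change of 1 in addition, 1 and 1 were left between the lines (against 2.97% and 3.04%). With single cultures left out the counts ranged from 0 to 3, 0 to 1, 4 to 10 and 2 to 13, and the interaction stayed at 0. The share of all genes called then ranged from 6.57 to 16.7%, 5.03 to 11.2%, 5.68 to 14.7% and 5.61 to 20.5%. In these fits the median change with WA of these genes, on the log2 scale, ranged from -0.028 to 0.057 in MM1R and from -0.028 to 0.074 in MM1S, and under the other alternatives from -0.035 to 0.028 and from 0.003 to 0.034. DESeq2's size factors, a minimum of 10 reads in every library, only the 6 libraries compared, and the sum of both CANX entries kept all 4 counts within 1.5 times. For single genes that passed, the direction held in all alternatives run, with 41 values no longer past the limit and 251 on the same side. The cause of these changes was not tested. Low counts limit what can be said of ERO1B, DERL3, HYOU1 and EDEM2.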
